A study of Mus musculus with 12 samples.

Results

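Genes of chromatin structure were followed through the 4 groups of the study, 10 of the 45796 genes in the table. They encode histone variants (H2afz, H2afv, H2afy, H3f3a and H3f3b), high mobility group proteins (Hmgb1, Hmgb2 and Hmgn2) and the acidic or DNA-binding chromatin proteins Ptma and Nucks1. The members were chosen by gene symbol with the fold changes between the 4 groups already known, and without a numerical threshold. Levels, fold changes and adjusted p-values of these genes are therefore descriptions of this table and do not independently support one another.

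RNA came from Vg4+Vd4+ gamma delta T cells, innate-like T cells that can make interleukin 17 and home to skin, taken from skin-draining lymph nodes of C57BL/6 mice. The 4 groups of 3 libraries each came from crossing 2 genotypes, wild type and NF-kB1 deficient, with 2 creams, sham and imiquimod. Imiquimod activates Toll-like receptors and inflames mouse skin in a way that resembles psoriasis. NF-kB1 is the p105 precursor of the p50 subunit of NF-kB. The labels give neither the allele, nor the animals' age, nor the length of the treatment, nor whether the libraries of a group came from separate animals. The p-values thus rest on a spread between samples that may be technical only.

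DNA in the nucleus is wound around histones, and most histones are made only while DNA is copied. Variant histones are made outside that window too and replace the standard ones at chosen places: H2A.Z near promoters, H3.3 in active genes and macroH2A mostly in silent chromatin. High mobility group proteins bend DNA or loosen nucleosomes, and prothymosin alpha (Ptma) carries histones and linker histone H1 on and off chromatin. In T cells these transcripts are generally abundant, and several of them, H2afz and Hmgb2 above all, are widely used as markers of cells that divide.

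All 10 genes matched a RefSeq entry of assembly GRCm38.p6 by gene identifier, and the windows before their start sites were read from the same source. Shown are the 250 bases before the RefSeq start site of the 3 genes that passed the test after imiquimod in wild-type cells (H2afz, Nucks1 and Ptma), and of H2afv, which encodes the nearest relative of the H2afz protein and did not pass. The H2afv start site used lies inside the annotated gene (chromosome 11, 6427226 to 6444511). Its window therefore overlaps the gene, and the CCAAT matches nearest the start, at 59 and 17 bases, fall within it. Capitals mark CCAAT on either strand (read as CCAAT or ATTGG), the site of the factor NF-Y, and matches to the E2F site TTTCCCGC, TTTGGCGC, TTTCGCGC or TTTGCCGC on either strand.
H2afz (chr3:137864237-137864486, plus strand): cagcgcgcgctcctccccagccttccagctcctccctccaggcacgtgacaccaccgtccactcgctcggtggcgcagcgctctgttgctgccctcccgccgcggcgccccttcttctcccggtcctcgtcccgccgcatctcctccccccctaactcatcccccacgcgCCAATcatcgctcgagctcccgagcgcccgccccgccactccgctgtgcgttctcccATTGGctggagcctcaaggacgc
H2afv (chr11:6444444-6444693, minus strand): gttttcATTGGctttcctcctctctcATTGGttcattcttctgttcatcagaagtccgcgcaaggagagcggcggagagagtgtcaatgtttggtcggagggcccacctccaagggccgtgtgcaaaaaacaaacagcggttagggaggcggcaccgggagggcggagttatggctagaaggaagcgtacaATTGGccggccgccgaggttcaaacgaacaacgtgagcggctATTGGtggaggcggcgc
Nucks1 (chr1:131910208-131910457, plus strand): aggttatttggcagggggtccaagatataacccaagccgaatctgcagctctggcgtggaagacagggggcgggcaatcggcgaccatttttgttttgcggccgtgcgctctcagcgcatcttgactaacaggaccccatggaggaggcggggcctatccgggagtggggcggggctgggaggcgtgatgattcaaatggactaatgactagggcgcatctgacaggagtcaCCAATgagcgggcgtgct
Ptma (chr1:86526307-86526556, plus strand): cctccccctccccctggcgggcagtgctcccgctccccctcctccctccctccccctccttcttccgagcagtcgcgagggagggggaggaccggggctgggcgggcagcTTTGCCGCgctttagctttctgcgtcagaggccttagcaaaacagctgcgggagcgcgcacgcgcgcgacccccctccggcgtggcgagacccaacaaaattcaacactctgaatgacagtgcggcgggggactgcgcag

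CCAAT began 80 bases before the H2afz start site, with a second match on the other strand at 23 bases. It lay 18 bases before the Nucks1 start, and the H2afv window held 4 matches. The Ptma window held none, but had a match to the E2F site 140 bases before the start. Over all 10 members 7 had CCAAT in at least 1 window, against 33.8% of the 32851 windows of this length. The E2F site was found in 1 member and in 1.86% of windows, and the E-box CACGTG in 3 members and in 6.02%. Hmgb1 has 2 windows and so 2 chances of a match. These matches describe letters, and H2afv shows that CCAAT did not separate genes that passed from genes that did not.

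The table holds log2 normalized values, which are given here on the linear scale as normalized values. Depth was low: steps in the low values put 1 read at 0.488 to 1.98 and the reads on genes at 20507 to 69454 a library, fewest in wild-type imiquimod replicate 3. The transcripts of the 10 members rested on 0 to 98.5 estimated reads a library. The cells carried gamma delta T markers, with Cd3d, Cd3e, Cd3g, Tcrd, Sox13, Blk and Maf among those above 0 in at least 1 library. Il17a, Tcrg-C4 and Trdc were at 0 in all 12. The summed gamma delta T markers ran from 84.4 to 104 in wild-type sham, from 26.7 to 71.6 in wild-type imiquimod, from 47.8 to 133 in NF-kB1-deficient sham and from 79.0 to 112 in NF-kB1-deficient imiquimod libraries. The wild-type imiquimod libraries thus lay below the wild-type sham libraries in these markers. Their part in the results was not tested. B cell and neutrophil markers were at 0 throughout, and no other foreign marker list reached more than 0.0536% of a library. That highest share was of myeloid genes in wild-type imiquimod replicate 3, where the gamma delta T markers made up 0.107%. Of the 8 myeloid genes Cst3, Cd68 and Fcer1g were above 0 in at least 1 library, and Lyz2, Csf1r, Itgam, Itgax and Tyrobp were at 0 in all. Nfkb1 itself had group means of 4.11, 4.14, 9.45 and 5.96 in wild-type sham, NF-kB1-deficient sham, wild-type imiquimod and NF-kB1-deficient imiquimod cells, and a 3' tag can lie outside a deleted part, so it checks nothing.

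H2afz encodes H2A.Z.1, the main form of the H2A.Z variant (Entrez 51788, named H2az1 in RefSeq; GRCm38 chromosome 3, 137864487 to 137866922). Its normalized values were 14.6, 9.07 and 8.07 in wild-type sham libraries and 60.8, 47.0 and 85.5 in wild-type imiquimod libraries. In NF-kB1-deficient cells they were 8.82, 8.94 and 33.9 with sham and 28.3, 12.9 and 15.7 with imiquimod. All 3 wild-type imiquimod libraries stood above the other 9, and the remaining groups overlapped with one another. In wild-type cells the group mean went from 10.6 ± 3.53 to 64.4 ± 19.5 (SD, n = 3 each), and the log2 fold change was 2.50 ± 0.65 (SE; limma adjusted p = 0.0136). Without imiquimod replicate 3 it was 2.27 with an adjusted p of 0.0697.

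H2afv encodes H2A.Z.2, which differs from H2A.Z.1 by a few residues (Entrez 77605, H2az2 in RefSeq; chromosome 11, 6427226 to 6444511). Its values were 22.9, 7.17 and 9.94 in wild-type sham and 1.05, 11.1 and 39.6 in wild-type imiquimod libraries. They were 14.0, 1.09 and 9.44 in NF-kB1-deficient sham and 16.3, 0 and 12.3 in NF-kB1-deficient imiquimod libraries. Every group overlapped with each of the others, and the wild-type imiquimod group ran from about 1 estimated read to 20. The log2 fold change in wild-type cells was -0.36 ± 1.08 (SE; limma adjusted p = 0.885), and its sign turned to 0.78 without imiquimod replicate 1.

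H2afy encodes macroH2A1, a histone with a large extra domain (Entrez 26914, Macroh2a1 in RefSeq; chromosome 13, 56073622 to 56135626). It stood at 15.7, 19.3 and 18.01 in wild-type sham and at 19.4, 27.9 and 40.6 in wild-type imiquimod libraries, and in NF-kB1-deficient cells at 5.88, 26.8 and 11.95 with sham and at 15.3, 7.33 and 3.24 with imiquimod. The wild-type groups did not overlap, by a narrow margin of 19.3 against 19.4, and the change did not pass (log2 fold change 0.64 ± 0.78, SE; limma adjusted p = 0.695). Under imiquimod the 3 NF-kB1-deficient libraries lay below the 3 wild-type ones.

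H3f3a and H3f3b encode the same protein, histone H3.3, from separate genes (Entrez 15078, chromosome 1, 180802560 to 180813605; Entrez 15081, chromosome 11, 116021961 to 116026039). H3f3b was at 7.83, 25.8 and 38.5 in wild-type sham, 16.2, 22.6 and 17.8 in wild-type imiquimod, and in NF-kB1-deficient cells 26.5, 1.09 and 47.8 with sham and 28.8, 21.7 and 26.3 with imiquimod. Both sham groups spanned a wider range than both imiquimod groups, and every pair of groups overlapped. The log2 fold change in wild-type cells was -0.09 ± 0.72 (SE; 95% interval -1.51 to 1.33; limma adjusted p = 0.952). H3f3a had a mean of 3.37 over the 12 libraries, under the minimum of 5 for testing, and at most 8.52 estimated reads. Its values ran from 1.93 to 5.59 in wild-type sham, from 0 to 7.16 in wild-type imiquimod, from 0 to 2.52 in NF-kB1-deficient sham and from 4.14 to 4.99 in NF-kB1-deficient imiquimod libraries.

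Hmgb1 and Hmgb2 encode a pair of related DNA-bending proteins, of which the second is the one linked to dividing cells (Entrez 15289, chromosome 5, 149046702 to 149053057; Entrez 97165, chromosome 8, 57511843 to 57515999). Hmgb2 stood at 15.1, 7.66 and 0 in wild-type sham and at 34.9, 19.2 and 16.8 in wild-type imiquimod libraries. In NF-kB1-deficient cells it was at 12.9, 0 and 3.78 with sham and at 9.10, 0 and 4.54 with imiquimod. As for H2afz, the wild-type imiquimod libraries were the 3 highest of the 12, here by 16.8 against 15.1. The change in wild-type cells did not pass (log2 fold change 2.18 ± 1.14, SE; 95% interval -0.08 to 4.44; limma adjusted p = 0.272).

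Hmgb1 showed no such order. It was at 11.6, 7.73 and 9.17 in wild-type sham and at 5.07, 6.79 and 39.5 in wild-type imiquimod libraries, so that 2 imiquimod libraries lay below all sham ones and the third above. The log2 fold change was 0.26 ± 1.15 (SE; limma adjusted p = 0.924), and -0.59 without wild-type imiquimod replicate 3. In NF-kB1-deficient cells it was at 1.91, 0 and 5.03 with sham and at 5.76, 0 and 8.43 with imiquimod. All 3 NF-kB1-deficient sham libraries thus lay below the wild-type sham libraries, a difference that did not pass (log2 fold change -2.00 ± 1.15, SE; limma adjusted p = 0.911).

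Hmgn2 encodes a small nucleosome-binding protein (Entrez 15331; chromosome 4, 133964739 to 133967991). Hmgn2 was at 0 in every wild-type sham library and at 5.35, 10.2 and 2.64 in wild-type imiquimod libraries. It stood at 0, 3.12 and 4.91 in the sham libraries of NF-kB1-deficient cells and at 6.52, 0 and 0 in their imiquimod libraries. With a mean of 2.72 it was not tested, and a 0 can be a gene with a value of 1 or less. It is also the 1 member whose annotated 3' end is shared: 86.9% of the stretches of 50 bases in the last 300 bases of its main GENCODE transcript occur in transcripts of 2 other genes, against 0% for each of the other 9 members. Of those, Gm10282 was at 0 in all 12 libraries. The 12 lines of the table named as pseudogenes of members were at 0 in every library.

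Nucks1 encodes a DNA-binding phosphoprotein of the nucleus that takes part in DNA repair (Entrez 98415; chromosome 1, 131910458 to 131936321). Its values were 5.59, 10.7 and 17.4 in wild-type sham and 37.7, 70.5 and 75.3 in wild-type imiquimod libraries. In NF-kB1-deficient cells they were 26.5, 13.1 and 23.9 with sham and 16.02, 4.19 and 23.4 with imiquimod. The wild-type imiquimod libraries were again the 3 highest. Nucks1 rose in wild-type cells from 11.2 ± 5.92 to 61.2 ± 20.4 (SD, n = 3 each; log2 fold change 2.41 ± 0.66, SE; limma adjusted p = 0.0221). It is also the gene whose values sat most cleanly on whole reads, with 1 of 12 libraries off a whole number by over 0.02 read, against 11 for Ptma and 10 for H2afz.

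Ptma encodes prothymosin alpha, a very acidic small protein that binds histones and is abundant in growing cells (Entrez 19231; chromosome 1, 86526557 to 86530712). It stood at 13.5, 28.0 and 48.8 in wild-type sham and at 74.5, 64.8 and 195 in wild-type imiquimod libraries, and in NF-kB1-deficient cells at 43.1, 31.8 and 57.5 with sham and at 43.4, 20.2 and 46.1 with imiquimod. The lowest wild-type imiquimod library, at 64.8, was above the highest of the other 9, at 57.5. Ptma rose in wild-type cells from 30.1 ± 17.8 to 111 ± 72.6 (SD, n = 3 each; log2 fold change 1.85 ± 0.46, SE; limma adjusted p = 0.00858). Replicate 3 carried much of that mean: without it the log2 fold change was 1.36 (adjusted p = 0.131).

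**Figure D1:**
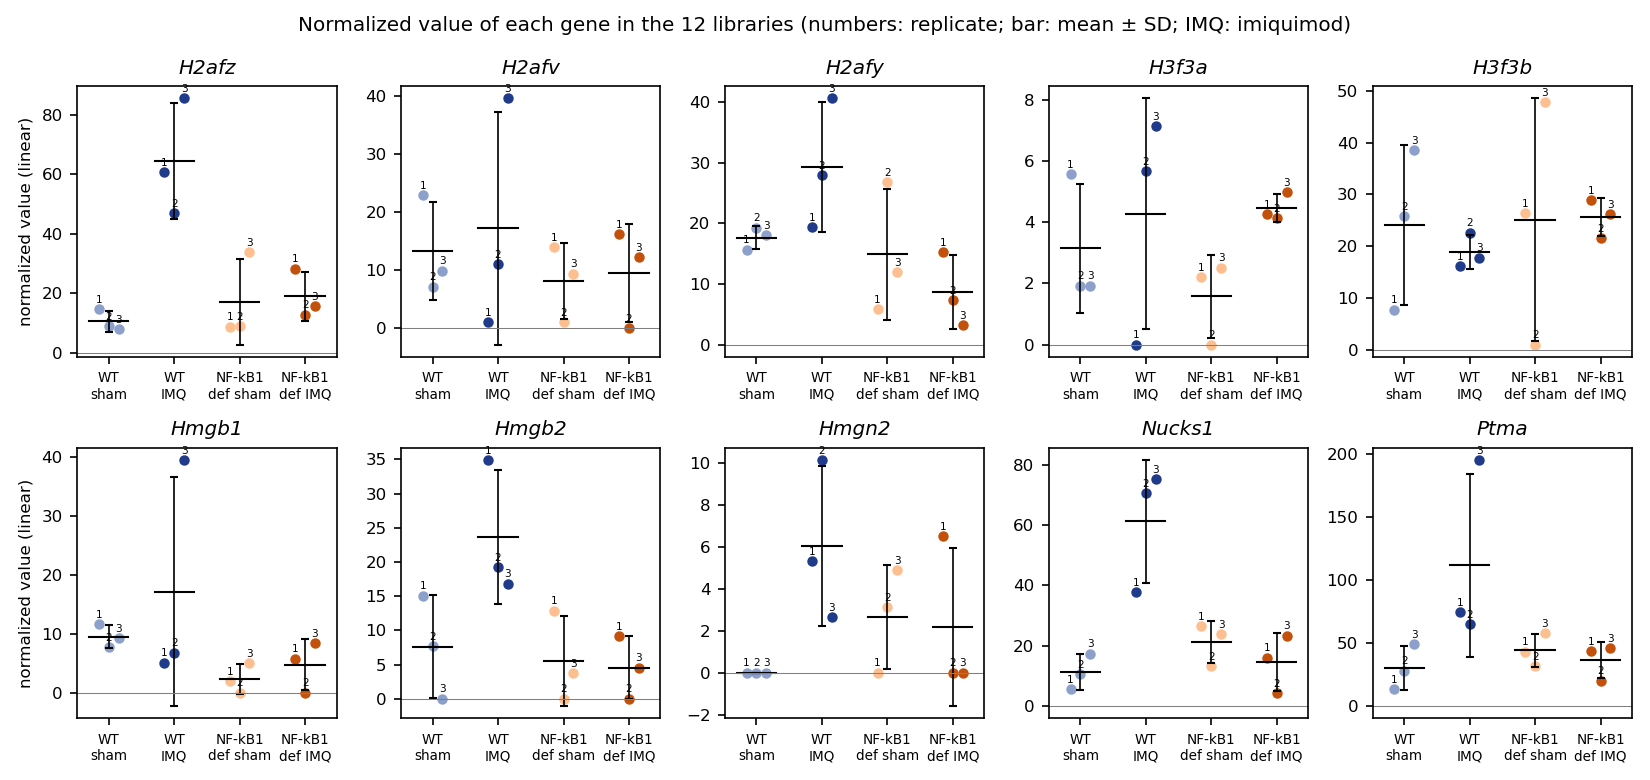
Normalized value (linear scale, y axis) of each of the 10 genes in the 4 groups (x axis; IMQ is imiquimod), with 1 point per library numbered by replicate and a bar at the mean ± SD of 3 libraries. For H2afz, Nucks1, Ptma and Hmgb2 the 3 wild-type imiquimod points lie above the 9 others, while for H2afv, H3f3b and Hmgb1 the wild-type sham and imiquimod points overlap.

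Taken over the members, 3 of the 8 tested genes (H2afz, Nucks1 and Ptma) were called higher in wild-type cells with imiquimod at an adjusted p under 0.05, where 3.25% of all 1571 tested genes were called in either direction. Those were 26 genes higher and 25 lower, or 19 higher and 29 lower with every library scaled to the same total. In 5 of the 8 the imiquimod libraries all lay above the sham libraries (10.7% of all tested genes), and in 4 of the 8 above all 9 other libraries (4.46% of all tested genes). The latter were 3 when every library was scaled to the same total, without Hmgb2, and 56 of all 1571 genes. The 8 had a median log2 fold change of 1.25, beside -0.07 over all genes tested. As the members were listed with this comparison known, nothing is read from these shares. In bulk RNA, more cells that carry a transcript and more of it per cell cannot be told apart.

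No call in wild-type cells held under every leave-out. Without wild-type imiquimod replicate 3, the library with the fewest reads and the highest H2afz, Nucks1 and Ptma values, 0 of the 8 members were called by limma. Without wild-type sham replicate 1, H2afz alone was called, and Nucks1 (adjusted p = 0.106) and Ptma (0.118) were not. H2afz also missed the threshold without wild-type sham replicate 3 (0.0519) or imiquimod replicate 1 (0.0528), and Nucks1 without imiquimod replicate 2 (0.0689). The fold changes moved less, from 2.27 to 2.73 for H2afz, from 2.02 to 2.76 for Nucks1 and from 1.36 to 2.28 for Ptma on the log2 scale. With no filter on low values, or with the variance prior set without trend or robust, none of the 3 was called (adjusted p from 0.109 to 0.298).

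**Figure D2:**
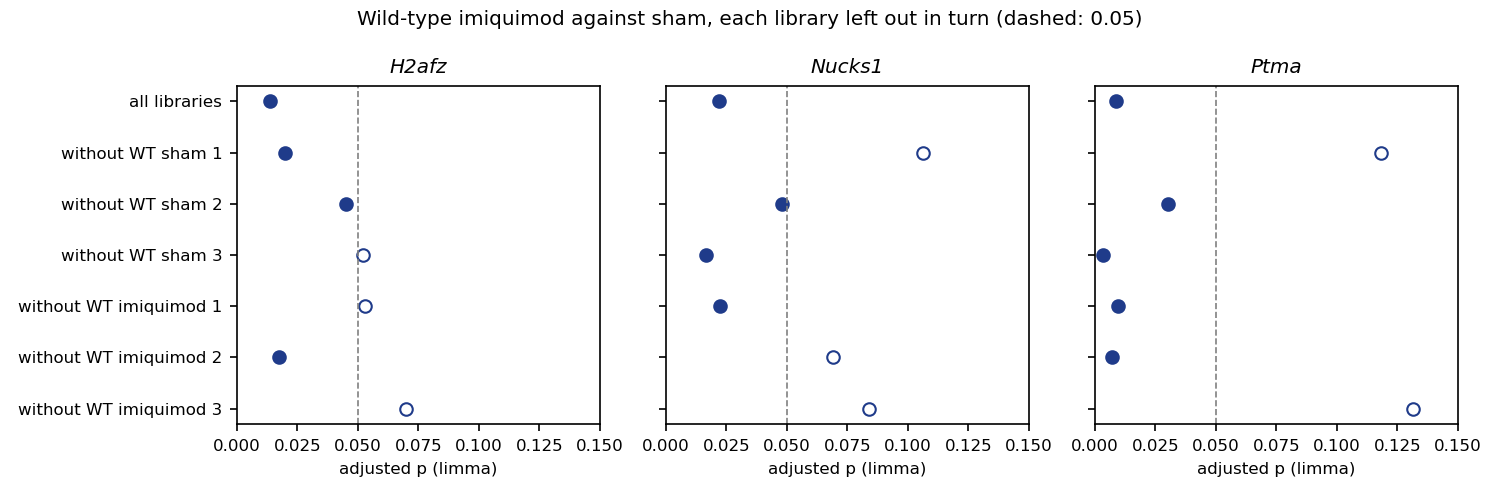
Adjusted p (limma, x axis) of H2afz, Nucks1 and Ptma for imiquimod against sham in wild-type cells, with all libraries and with each of 6 libraries left out in turn (y axis); filled points are under the dashed line at 0.05. Without wild-type imiquimod replicate 3 all 3 genes lie to the right of the line, at 0.0697, 0.0840 and 0.131.

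In NF-kB1-deficient cells the same treatment left these genes with no call. Limma called 0 of the 8 members, and 0 had an unadjusted p under 0.05, beside 0% of all tested genes called. In 0 of the 8 did the sham and imiquimod libraries stand apart (11.7% of all tested genes, in either direction). H2afz went from 17.2 ± 14.4 to 18.9 ± 8.18 (log2 fold change 0.33 ± 0.65, SE; 95% interval -0.95 to 1.62), Nucks1 from 21.2 ± 7.07 to 14.5 ± 9.67 (-0.72 ± 0.66; -2.03 to 0.59) and Ptma from 44.1 ± 12.9 to 36.6 ± 14.2 (-0.31 ± 0.46; -1.22 to 0.60; mean ± SD, n = 3 each). Each of these 3 had a limma adjusted p of 0.996. The intervals leave room for a change of 1 log2 unit or more in at least 1 direction. Of the 8 genes, H3f3b had the largest estimate, 0.90 ± 0.72 (adjusted p = 0.996), which turned to -0.47 without NF-kB1-deficient sham replicate 2, where H3f3b stood at 1 estimated read.

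**Figure D3:**
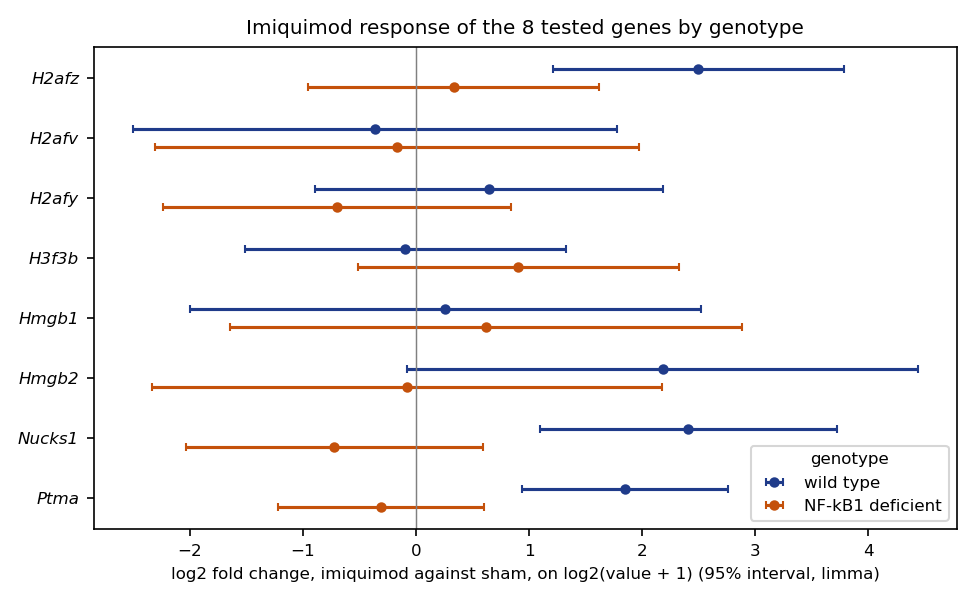
Log2 fold change of imiquimod against sham on the log2(value + 1) scale (x axis) with its 95% interval from limma, for the 8 tested genes (y axis) in wild-type and NF-kB1-deficient cells. The wild-type intervals of H2afz, Nucks1 and Ptma lie above 0, and all 8 NF-kB1-deficient intervals span 0.

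NF-kB1-deficient replicate 2 stood low in the members' sum in both treatments, though not in every member. Hmgb1 and Hmgb2 were at 0 in both of those libraries, and H2afv was at 1.09 with sham and 0 with imiquimod. H2afy, in contrast, was at 26.8 with sham, the highest of its group, and at 7.33 with imiquimod. The 10 members summed to 86.0 with sham and 70.4 with imiquimod, the lowest of the 12. The sums of the other 10 libraries ran from 112 to 520, and the 3 wild-type imiquimod libraries were the highest, at 255, 286 and 520. As a share of the library's summed value the members made up 0.692%, 0.763% and 1.28% in those 3 and at most 0.588% in any other library, so this order did not depend on the scaling between libraries.

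The genotypes were next set side by side. With sham cream limma called 0 of the 8 members, with 0 at an unadjusted p under 0.05, beside 0% of all tested genes called. Hmgb1 was the 1 member whose NF-kB1-deficient libraries all lay below the wild-type ones (4.65% of all tested genes). Nucks1 had the largest positive estimate in this comparison, 0.92 ± 0.66 on the log2 scale (SE; limma adjusted p = 0.947).

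Under imiquimod 7 of the 8 members had lower estimates in NF-kB1-deficient than in wild-type cells, with a median log2 fold change of -1.69 beside 0.13 over all genes tested. Limma called 0 of them, beside 1.78% of all tested genes. At an unadjusted p under 0.05 there were 5 members, and 225 of all 1571 genes. In those 5 (H2afz, H2afy, Hmgb2, Nucks1 and Ptma) every NF-kB1-deficient library lay below every wild-type one, as in 10.3% of all tested genes. The log2 fold changes were -2.21 ± 0.66 for Nucks1 (SE; limma adjusted p = 0.0588), -1.49 ± 0.46 for Ptma (0.0752), -1.75 ± 0.65 for H2afz (0.163), -1.80 ± 0.78 for H2afy (0.249) and -2.62 ± 1.14 for Hmgb2 (0.251). This comparison uses the same 3 wild-type imiquimod libraries as the response in wild-type cells, so the 2 are not separate evidence. Nucks1 and Ptma were close to the threshold. With the pseudocount at 10 they were called (adjusted p = 0.0261 and 0.0474), likewise with a minimum mean of 20 (0.0253 and 0.0493), while without wild-type imiquimod replicate 3 neither was.

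Whether the response to imiquimod differed between genotypes was tested as an interaction. Limma called 0 of the 8 members, beside 0.446% of all tested genes. At an unadjusted p under 0.05 there were 3 members, and 169 of all 1571 genes. The members were Nucks1, with a difference of responses of -3.13 ± 0.94 on the log2 scale (SE; adjusted p = 0.138), Ptma with -2.16 ± 0.65 (0.138) and H2afz with -2.17 ± 0.92 (0.337). The larger response of wild-type cells is therefore an estimate that did not pass the test. Nucks1 passed in 1 alternative, a minimum mean of 20 (adjusted p = 0.0468).

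Shares within pairs of related genes do not depend on how libraries were scaled, and were compared between libraries as a description. H2afz made up 39.0%, 55.8% and 44.8% of the H2A.Z pair (H2afz + H2afv) in wild-type sham and 98.3%, 81.0% and 68.3% in wild-type imiquimod libraries. These groups did not overlap. In NF-kB1-deficient cells the share was already wide with sham, at 38.7%, 89.1% and 78.2%, and stood at 63.4%, 100% and 56.1% with imiquimod. The pair rested on 9.17 to 88.9 estimated reads a library. Hmgb2 made up 56.6%, 49.8% and 0% of the Hmgb1 and Hmgb2 pair in wild-type sham and 87.3%, 73.9% and 29.9% in wild-type imiquimod libraries, which overlap. H3f3a made up less than a majority of the H3.3 pair everywhere, from 0% to 41.7%. It was 7.69%, 0% and 5% in NF-kB1-deficient sham and 12.9%, 16.07% and 15.98% in NF-kB1-deficient imiquimod libraries, which did not overlap, and both wild-type groups spanned a wider range. Those sham shares rested on 3, 0 and 2 estimated H3f3a reads, with 1 H3f3b read in replicate 2, so nothing is read from this split. The H3.3 pair rested on 1 to 66.1 estimated reads a library.

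**Figure D4:**
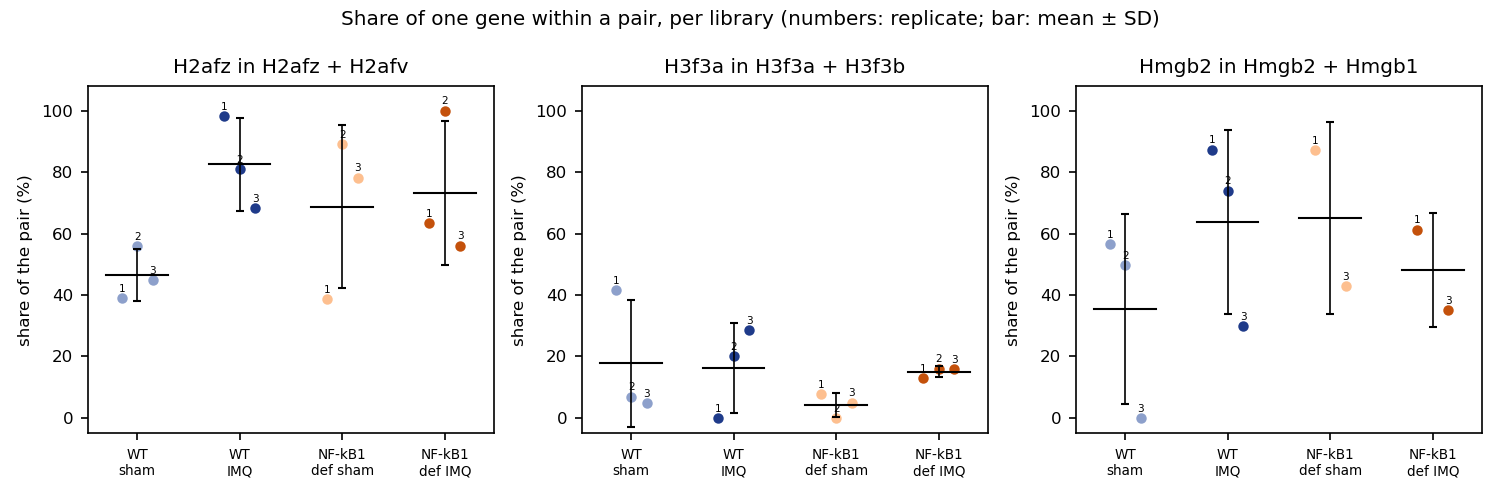
Share of H2afz in H2afz + H2afv, of H3f3a in H3f3a + H3f3b and of Hmgb2 in Hmgb2 + Hmgb1 (percent of the pair's summed normalized value, y axis) in the 4 groups (x axis), with 1 numbered point per library and a bar at the mean ± SD; 2 libraries with neither Hmgb gene above 0 have no point. The H2afz share lies between 39.0% and 55.8% in wild-type sham and between 68.3% and 98.3% in wild-type imiquimod libraries. The H3f3a share is at most 7.69% in NF-kB1-deficient sham and at least 12.9% in NF-kB1-deficient imiquimod libraries. Those sham libraries held 3, 0 and 2 estimated H3f3a reads.

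Other genes of chromatin were too scarce to extend this picture. Of 12 further variants and linker histones 6 were above 0 in any library and 0 reached the filter. Among them H2afj, an H2A variant, was at 12.9, 2.93 and 0 in wild-type sham and at 0 in all wild-type imiquimod libraries, and Cenpa, the histone H3 of centromeres, was at 5.59, 1.95 and 0 and then at 25.2, 15.8 and 0. Of 9 further genes, high mobility group genes and the prothymosin relative Ptms, 2 were tested and neither was called in wild-type cells. Hmga1, an architectural factor of dividing cells, had an estimate of 2.91 ± 1.47 on the log2 scale (SE; limma adjusted p = 0.248) and Hmgn1, a relative of Hmgn2, 1.07 ± 0.77 (0.463). Hmga1 reached the filter through its wild-type imiquimod mean of 15.9, beside 0.839 to 2.24 in the other groups.

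Histone chaperones and exchange factors, which carry histones or swap variants, had 16 tested genes of 31. In wild-type cells 14 of the 16 estimates were positive, beside 48.1% of all tested genes, with a median of 0.95 beside -0.07. Of the 16, 1 was called, beside 3.25% of all tested genes in either direction. That was the nucleolar chaperone Npm1 (log2 fold change 2.73 ± 0.52, SE; limma adjusted p = 0.000143). Dek, an H3.3-binding protein, had 2.41 ± 0.79 (0.0706) and Anp32e, which removes H2A.Z from chromatin, 2.20 ± 0.80 (0.103). Anp32e stood at 4.47, 2.44 and 23.6 in wild-type sham and at 68.1, 30.5 and 19.8 in wild-type imiquimod libraries, so its groups overlapped. In NF-kB1-deficient cells limma called 0 of the 16, beside 0% of all tested genes. At an unadjusted p under 0.05 there was 1, and 53 of all 1571 genes.

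Genes of cell division are the last list. All 14 tested of 28 had positive estimates in wild-type cells, beside 48.1% of all tested genes. The median log2 fold change was 3.73, or 3.50 over the 10 that were not at 0 throughout a group. Limma called 5 of them, beside 3.25% of all tested genes in either direction: Lig1, Birc5, Top2a, Cks1b and Mcm7 (adjusted p from 0.0145 to 0.0423). These 5 reached the minimum mean of 5 largely through the wild-type imiquimod libraries. Their group means were 21.4 to 35.2 there and 0 to 1.27 in wild-type sham. The filter thus favours positive estimates in this list, and nothing is read from these counts or the median. Their summed normalized value, over the whole list, was 26.7 to 35.2 in wild-type sham, 287 to 523 in wild-type imiquimod, 36.0 to 105 in NF-kB1-deficient sham and 36.3 to 144 in NF-kB1-deficient imiquimod libraries. Wild-type imiquimod replicate 3 was the highest in this sum as it was in the members' sum. What part division has in the members' values was not tested.

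The genes whose profiles over the 12 libraries were most like that of H2afz, among 238 with a mean of at least 20, were Atp5g3 (Pearson r = 0.92), Tuba1b (0.85), Ncl (0.85), Npm1 (0.82) and Hnrnpu (0.81). For Hmgb2 they were Eif3a (0.79), Ssb (0.76), Rplp0 (0.73), Pomp (0.72) and Pcbp1 (0.72). The list of cell division genes had 0 genes at that mean, so its genes were not among those compared. These correlations are on log2(value + 1), rest on 12 libraries in 4 groups that differ in depth, and are given as a description.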

How the data were processed

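The series holds 12 libraries made with a 3' tag kit (QuantSeq FWD), per the labels' protocols. The authors deposited 1 table of normalized values on a log2 scale. Per the submitters' processing notes the build was mm10; aligner, counting program and method of normalization: not given in the sources used here. Columns were matched to samples by title, and none was left unused.

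Values were taken back to the linear scale, and log2 values of 0 or below were set to 0, so none lay between 0 and 1. A read was worth less than 1 in all 3 NF-kB1-deficient imiquimod libraries (0.501, 0.699 and 0.649). The same held for wild-type sham replicate 2 (0.488) and NF-kB1-deficient sham replicate 1 (0.735). In these libraries a gene with 1 read stood at 0, unlike in wild-type imiquimod libraries, where a read was worth 1.05 to 1.98. Of values under 20 estimated reads, 71.2% to 80.2% lay within 0.01 of a whole read, so no count test was run. Many of the rest stand at fractions of a read, also among the members, and the cause was not tested. Limma 3.58.1 (R 4.3.3, the data.table package, version 1.17.8) was fitted across all genes with a mean of at least 5, 1571 genes, on log2(value + 1), with all 12 libraries, 1 coefficient per group, and eBayes with trend and robust (8 residual degrees of freedom, median prior 145). Folds on this scale understate changes of low genes. P-values were adjusted by Benjamini-Hochberg over all 1571 genes, for each comparison on its own. The script was tested on simulated data.

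Members and lists were chosen with earlier results of these data known. All members are named; of each companion list, called genes and the 3 lowest p in wild-type cells could be named, with the 5 genes most like H2afz and Hmgb2, and the untested H2afj and Cenpa were named after their values were seen. Sequences are RefSeq's, build GRCm38.p6, and 3' ends GENCODE's; python 3.11.15 and pandas 2.3.3 handled both. Alternatives changed the pseudocount, filter, scaling, variance prior, samples in the fit and replicate block, and left out each library.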

Additional observations from a re-analysis of the deposited data

How the results depend on the processing

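The median SE over tested genes was 1.12 on the log2 scale, and what part of it is counting error at this depth was not tested. The count of called members in wild-type cells was 0 with no filter and 0 without trend or robust in place of 3, and ran from 0 to 3 without 1 library. Under imiquimod, the count of members lower in NF-kB1-deficient cells was 2 with a pseudocount of 10, 2 with a mean of at least 20, 1 with only the groups compared and 2 with the replicate block in place of 0, and 0 to 1 without 1 library. The interaction gave 1 with a mean of at least 20, and 0 in every leave-out. Proliferation genes called higher in wild-type cells were 5 in the main fit. They were 0 with a pseudocount of 0.1, 9 with 10 and 0 with no filter. Equal totals gave 3, only the groups compared 2, and leaving out 1 library 1 to 4. With a mean of at least 20 this list had 0 tested genes, so none could be called. Chaperones called higher were 2 with a pseudocount of 10 and 0 without trend or robust in place of 1, and 1 to 2 without 1 library. Between genotypes under imiquimod, in place of 0, proliferation genes called lower were 4 with a pseudocount of 10, 1 with only the groups compared and 0 to 1 without 1 library, and chaperones 1 with only the groups compared. The cause was not tested. Signs turned for members that were not called: H2afv in wild-type cells was 0.011 with a pseudocount of 10 and ran from -1.37 to 0.78 without 1 library, H3f3b from -0.72 to 0.36 and Hmgb1 from -0.59 to 0.78. In NF-kB1-deficient cells H3f3b ran from -0.47 to 1.80 and Ptma from -0.52 to 0.059. Equal totals moved the median of all tested genes in wild-type cells from -0.07 to -0.25, and H2afz, Nucks1 and Ptma remained called. All 206 alternative group means of levels and shares lay within 1 SD of the reported ones, which was largely fixed in advance. Leaving out 1 library of 3 or fewer cannot move a mean by 1 SD, and equal totals leave shares unchanged. Nothing is read from this count. Whether replicate numbers pair the samples was not settled. Deviations of same-numbered libraries correlated weakly, at -0.01 to 0.06 over 18 pairs (median 0.016). Over 36 pairs with different numbers they correlated at -0.06 to 0.04 (median -0.004). Yet 10 of 12 libraries correlated best with their own number. The replicate block changed no other count of called members.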
